A study of Arabidopsis thaliana with 18 samples.

Results

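The transcriptome of sant-null seedlings was compared with that of the wild type Col-0 after heat at 37 °C, over all genes of the authors' deposited table for that pair. It lists 24058 of the 32548 genes of the authors' expression table, and 21736 of the listed genes carry an adjusted p and are called tested here. The sant-null group holds 3 RNA-seq libraries of seedlings from quadruple mutants in SANT1, SANT2, SANT3 and SANT4, heated for 1 h at 37 °C. The Col-0 group holds 3 libraries of seedlings of the laboratory wild type, heated in the same way. These 6 libraries belong to a series of 18, in which sant-null, the histone deacetylase mutant hda6 and Col-0 were each sampled at 37 °C and at 22 °C. All seedlings were 7 days old, grown on half-strength MS medium in cycles of 16 h light and 8 h dark. Whole seedlings were extracted, so a transcript can be lower because fewer cells of a type were present or because each cell held less of it, and the pair cannot be told apart. No source used here names the alleles, or says how many lines or plants each library pools.

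SANT domains are small folds found in many chromatin regulators, where they commonly bind histone tails or partner proteins. HDA6 removes acetyl groups from histones and is known in Arabidopsis for silencing transposons and genes. In the heat shock response, heat shock factors bind repeats of a short element, nGAAn, in promoters and drive chaperone genes. Small heat shock proteins hold unfolding proteins in a soluble state, HSP70 and HSP90 refold and mature them, and HSP101 pulls aggregates apart.

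The largest fold differences at 37 °C were genes that were nearly silent in Col-0 and carried a low level of transcript in sant-null, while highly expressed chaperone and light-harvesting genes differed by much less. Among the small heat shock proteins, HSP21, HSP22.0 and HSP17.6II rose in sant-null. HSC70-1, HSP90.3 and HSP101 fell by small amounts. AT5G24240, annotated as a phosphatidylinositol 4-kinase gamma-like protein, fell most among the genes expressed at 1 FPKM or more.

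Levels are given as FPKM, fragments per kilobase of gene scaled to library depth, of which the authors deposited a single mean per group, so no level carries an SD. Differences are the log2 fold changes of sant-null over Col-0 with their standard errors (SE) from the authors' deposited DESeq2 table, and a gene was called, and is said to have risen or fallen, at a deposited adjusted p under 0.05. The size factors recovered from genes with a single read put the 3 sant-null libraries at 20.5, 22.1 and 24.1 M assigned counts and the 3 Col-0 libraries at 18.3, 20.3 and 25.2 M, where M stands for mega. HDA6, which neither genotype label alters, had 4.03 FPKM in sant-null and 3.96 FPKM in Col-0, and its log2 fold change in the authors' deposited table was -0.02 ± 0.12 (SE, adjusted p = 0.970). The sources do not pair the names SANT1 to SANT4 with gene identifiers. Of the genes annotated as arginine-glutamic acid dipeptide repeat proteins, AT2G47820 had 0.0117 FPKM in sant-null and 0.165 FPKM in Col-0, AT1G09040 had 0.0183 FPKM in sant-null and 0.102 FPKM in Col-0, and AT1G09050 had 0.713 FPKM in sant-null and 0.280 FPKM in Col-0. All 3 were called in the authors' deposited table, the first pair lower and AT1G09050 higher.

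Of the tested genes, 1026 were called higher in sant-null (4.72%) and 880 lower (4.05%). At a fold of at least 2, 502 were higher (2.31%) and 60 lower (0.276%). The median log2 fold change in the authors' deposited table was 0.97 over the genes called higher, -0.34 over those called lower and 0.01 over all tested genes. The balance of directions depends on the scale. Setting the log2 fold changes to the scale of the authors' FPKM, a shift of 0.04, gave a share of higher calls of 68.1%, against 53.8% on the deposited scale. In 63 of the genes called higher, Col-0 was listed at 0 FPKM.

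The calls differed between levels of expression. Among the 407 tested genes with a mean over 100 FPKM, 31 (7.62%) were higher and 99 (24.3%) lower, with median log2 fold changes of 0.22 and -0.18, and on the FPKM scale the counts were 50 and 55. Of the 2776 genes between 10 and 100 FPKM, 192 were higher and 319 lower, against 277 and 200 on the FPKM scale. Between 1 and 10 FPKM, 389 were higher and 405 lower, against 455 and 277 on the FPKM scale. Between 0.1 and 1 FPKM, 342 of 6586 genes were higher and 54 lower, with a median log2 fold change of 1.92 over those called higher, and below 0.1 FPKM 72 of 2566 were higher and 3 lower. The standard error behind these calls ran from a median of 0.04 for the genes over 100 FPKM to 1.36 for those under 0.1 FPKM, so only large differences could be called at low levels.

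**Figure D1:**
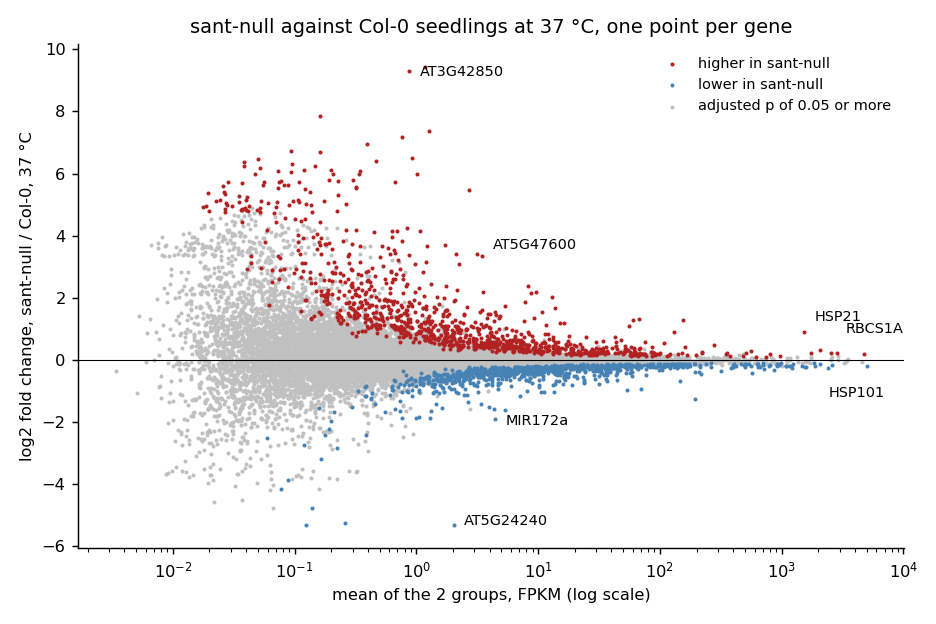
Log2 fold change of sant-null over Col-0 at 37 °C in the authors' deposited table (vertical axis) against the mean of the authors' FPKM over both groups (horizontal axis, log scale), with a point per tested gene and the genes called higher or lower in colour. The 502 genes called at least 2-fold higher lie mostly at the low end of the horizontal axis, and the called genes over 100 FPKM lie close to 0.

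By annotated type, 1008 of the genes called higher and 874 of those called lower code for proteins. Long non-coding RNAs gave 15 higher and 0 lower calls of 425 tested, and miRNA precursors gave 0 higher and 3 lower calls of 45 tested. Over all tested genes 4.72% were higher and 4.05% lower, and between 0.1 and 1 FPKM 0.820% were lower. The part of level in the counts by type was not tested.

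The sequences that bear on the heat-raised genes are shown first. The heat shock element was searched on both strands of the 250 bases before each gene's annotated start (RefSeq, TAIR10.1) as GAANNTTC or TTCNNGAA, letters that read the same on either strand, and as runs of 3 units, in which a match of one motif overlaps a match of the other by 3 bases. The genes shown were chosen after their values were seen. HSP21 and AT1G71000, a DnaJ-domain chaperone gene, are shown because they are heat-raised chaperone genes that rose in sant-null, HSFA7B because it is the heat shock factor that rose, and BAG6 because it is a heat-raised co-chaperone that fell. Each runs 5′ to 3′ and ends at the base before the start, with the matches in capitals. The windows are HSP21 chr4:13819972-13820221 on the minus strand, AT1G71000 chr1:26770178-26770427 on the minus strand, HSFA7B chr3:23398986-23399235 on the plus strand and BAG6 chr2:18985883-18986132 on the plus strand, the last of which overlaps the neighbouring gene AT2G46230.
HSP21: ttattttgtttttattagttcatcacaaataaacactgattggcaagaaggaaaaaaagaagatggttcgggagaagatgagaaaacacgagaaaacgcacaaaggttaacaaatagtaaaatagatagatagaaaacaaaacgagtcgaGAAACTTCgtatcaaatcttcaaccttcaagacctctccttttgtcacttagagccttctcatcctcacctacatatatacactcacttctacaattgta
AT1G71000: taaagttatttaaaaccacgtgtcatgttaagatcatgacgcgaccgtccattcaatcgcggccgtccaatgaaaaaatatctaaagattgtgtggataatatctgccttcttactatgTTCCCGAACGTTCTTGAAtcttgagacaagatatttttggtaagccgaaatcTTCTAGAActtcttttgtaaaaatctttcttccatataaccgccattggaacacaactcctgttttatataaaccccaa
HSFA7B: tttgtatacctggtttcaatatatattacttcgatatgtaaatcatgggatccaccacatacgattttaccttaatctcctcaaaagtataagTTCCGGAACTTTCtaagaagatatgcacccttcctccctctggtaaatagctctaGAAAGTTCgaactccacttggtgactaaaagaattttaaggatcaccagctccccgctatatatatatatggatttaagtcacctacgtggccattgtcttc
BAG6: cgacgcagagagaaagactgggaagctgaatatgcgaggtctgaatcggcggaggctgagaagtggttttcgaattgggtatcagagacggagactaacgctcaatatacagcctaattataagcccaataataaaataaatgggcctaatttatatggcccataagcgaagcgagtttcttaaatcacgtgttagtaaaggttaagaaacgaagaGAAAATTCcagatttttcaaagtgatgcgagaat

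HSP21 holds 1 match, 100 to 93 bases before the start, and BAG6 holds 1 match, 34 to 27 bases before it. HSFA7B holds 3 matches, a pair of which overlap as 1 run of 3 units. AT1G71000 holds 4 matches and 2 overlapping runs of 3 units. Each window shown holds a match, but those of HSP22.0, HSP17.6II and HSP18.2, which rose, and of HSP101 and HSC70-1, which fell, hold 0. Only exact matches inside the windows were counted. Units with a mismatch or another spacing, and sites outside the windows, were not searched. A count of 0, here and in the lists below, therefore does not show that a gene lacks the element. By list, a match lay in 7 of 19 windows of small heat shock proteins and 0 of 13 of HSP70 genes. For HSP90 and HSP100 genes it was 2 of 10, and for cofactors 3 of 9. Either 2-unit motif was found in 16.1% of the 27443 windows of protein-coding genes. Among tested genes at 1 FPKM or more in hda6 and raised over 8-fold by heat there, it was found in 23.8% of 252 windows. Of these, 12 of the 50 called higher in sant-null and 13 of the 57 called lower held it. The motif was thus about as frequent in the windows of heat-raised genes that were higher in sant-null as in those that were lower.

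MIR172a, the precursor gene of a miRNA that pairs with transcripts of AP2-like floral repressors, is the miRNA gene with the largest fold fall among those at 1 FPKM or more. The mature miRNA (chr2:11942918-11942938, minus strand) is given in DNA letters, 5′ to 3′, with the seed, bases 2 to 8, in capitals.
ath-miR172a: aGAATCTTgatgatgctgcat

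The genes with the largest folds were near silence in Col-0 and at a low level in sant-null. The 14 with the largest log2 fold change among those called higher and expressed at 1 FPKM or more had 1.19 to 5.26 FPKM in sant-null (median 1.67) and 0 to 0.113 FPKM in Col-0 (median 0.0493). Every one of the 14 was also called higher in sant-null at 22 °C, in libraries that are not used in the comparison at 37 °C, and 10 of them had a higher level in sant-null at 22 °C than at 37 °C. None of the 14 was called for the difference between the temperatures, which does not show that the effects were equal. For AT3G42850 the log2 fold change in the authors' deposited tables was 9.31 ± 1.19 at 37 °C and 6.35 ± 0.41 at 22 °C (SE). In hda6 at 37 °C the same genes had 0.127 to 1.45 FPKM (median 0.380).

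REM22, a B3-domain DNA-binding protein, had 2.34 FPKM in sant-null and was listed at 0 in Col-0, and had 0.252 FPKM in hda6. AT3G42850, annotated in the mevalonate and galactokinase family, had 1.74 FPKM in sant-null, 0.196 FPKM in hda6 and 0.00205 FPKM in Col-0, and its log2 fold change was 9.31 ± 1.19 in the authors' deposited table, or 4.18 as a ratio of FPKM with a pseudocount of 0.1. AT5G54095, a proteoglycan-like protein, reached the highest level of the 14, with 5.26 FPKM in sant-null, 1.45 FPKM in hda6 and 0.113 FPKM in Col-0. Its log2 fold change in the authors' deposited table was 5.46 ± 0.46 (SE, adjusted p = 1.43e-29).

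TIL2, which encodes a catalytic subunit of DNA polymerase epsilon, was the gene of the 14 that differed between the mutants. It had 1.32 FPKM in sant-null, 0.127 FPKM in hda6 and 0.0699 FPKM in Col-0. Against Col-0, its log2 fold change in the authors' deposited tables was 4.16 ± 0.46 in sant-null and 0.83 in hda6, and sant-null minus hda6 came to 3.33 ± 0.66 (SE, Wald test, adjusted p = 4.50e-05). For the other 13 this difference missed the threshold, which does not show that the mutants had the same level. PRK4, a pollen receptor-like kinase, had 1.59 FPKM in sant-null, 0.596 FPKM in hda6 and 0.0772 FPKM in Col-0, and MPK10, a MAP kinase, had 1.19, 0.394 and 0.0727 FPKM in these groups. The remaining members were AT3G15605, AT4G18900, AT5G66150, AT4G38213, AT1G03106, AT2G21260, AT1G78030 and PAB7, a poly(A)-binding protein, with 1.19 to 2.52 FPKM in sant-null. AT3G15605, PRK4, MPK10 and PAB7 overlap another annotated gene, and since no source used here says how strand was used in counting, reads of the overlap may belong to either.

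AT5G24240 fell furthest. It had 0.102 FPKM in sant-null, 3.22 FPKM in hda6 and 3.94 FPKM in Col-0, so the transcript was nearly lost in sant-null and close to the Col-0 level in hda6. The authors' deposited table gave -5.31 ± 0.28 (SE, adjusted p = 2.95e-77). The difference between the mutants was -5.02 ± 0.30 (SE, Wald test, adjusted p = 4.47e-59). At 22 °C it had 0.361 FPKM in sant-null and 6.64 FPKM in Col-0, and the effect did not pass the test of a difference between temperatures (37 °C minus 22 °C -1.02, adjusted p = 0.147). The gene overlaps AT5G24230.

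The other 13 genes of the 14 with the largest falls had log2 fold changes of -1.91 to -1.43 in the authors' deposited table. Over all 14 the levels were 0.102 to 2.71 FPKM in sant-null (median 0.723) and 1.09 to 8.08 FPKM in Col-0 (median 2.24). Of the 13 with a value at 22 °C, 11 were called lower there too. MIR172a had 1.89 FPKM in sant-null, 1.59 FPKM in hda6 and 7.00 FPKM in Col-0, with a log2 fold change of -1.91 ± 0.51 (adjusted p = 0.00399) in the authors' deposited table, and was listed at 0 in sant-null and Col-0 at 22 °C. The level at 37 °C was lower in both mutants than in Col-0.

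ABCG6, a half-size transporter needed for suberin barriers, had 0.333 FPKM in sant-null and 1.19 FPKM in Col-0. MGD3 and PEPC1, a galactolipid synthase and a phosphatase that plants raise under phosphate shortage, had 0.648 and 2.21 FPKM in sant-null and 1.98 and 6.48 FPKM in Col-0. SQE2, a squalene epoxidase of sterol synthesis, had 0.798 FPKM in sant-null and 2.09 FPKM in Col-0 at 37 °C, but 1.93 FPKM in sant-null and 1.44 FPKM in Col-0 at 22 °C. Its effect differed between temperatures by -1.76 ± 0.25 (SE, Wald test, adjusted p = 1.22e-09). AT2G05510, a glycine-rich protein, had 2.71 FPKM in sant-null and 8.08 FPKM in Col-0, with similar proportions at 22 °C (3.84 and 10.4 FPKM). AT5G03090 had 0.469 FPKM in sant-null, 167 FPKM in hda6 and 1.65 FPKM in Col-0. In that gene the mutants moved in opposite directions from Col-0, and the difference between them was called (adjusted p = 9.88e-38, Wald test).

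Most small heat shock proteins were at or a little above the Col-0 level in sant-null after heat. Of 19 members, all of them tested, 6 rose and 1 fell, with a median log2 fold change of 0.11 against 0.01 over all tested genes, or 9 and 0 on the FPKM scale. The shares over all tested genes were 4.72% higher and 4.05% lower. Among those over 100 FPKM, where 15 of the members lie, they were 7.62% and 24.3%. The 19 members summed to 31893 FPKM in sant-null and 28670 FPKM in Col-0. In hda6 at 37 °C 9 of the 19 were called higher than in Col-0 and 0 lower, with a median log2 fold change of 0.12. No share over all genes was counted for hda6 against Col-0, so list counts in hda6, here and below, have no background. HSP21, the chloroplast member, stood apart with 1996 FPKM in sant-null, 1377 FPKM in hda6 and 1045 FPKM in Col-0. Its log2 fold change in the authors' deposited table was 0.89 ± 0.04 (SE, adjusted p = 1.87e-100), and sant-null exceeded hda6 by 0.49 (Wald test, called).

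HSP22.0, located in the endoplasmic reticulum, had 2342 FPKM in sant-null and 1824 FPKM in Col-0 (log2 fold change 0.32 ± 0.04, adjusted p = 1.31e-16, authors' deposited table). HSP17.6II, a cytosolic class II member, had 2793 and 2326 FPKM, and AT1G52560 had 864 and 728 FPKM in sant-null and Col-0. HSP18.2, a cytosolic class I gene that was added to the list after its value was seen, had 3106 FPKM in sant-null and 2554 FPKM in Col-0 and also rose (0.24 ± 0.04, authors' deposited table). These rises were a small part of the level already reached in heated Col-0.

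Most of the other abundant members did not pass the test. HSP23.6, a mitochondrial member, had 3055 FPKM in sant-null and 2717 FPKM in Col-0 (adjusted p = 0.0598, authors' deposited table) and passed only on the FPKM scale. HSP17.6A had 2554 and 2497 FPKM and AT1G07400 had 4509 and 4589 FPKM in sant-null and Col-0. A further pair of members called higher, AT5G47600 and AT5G47590, are adjacent genes at low level. AT5G47600 had 6.36 FPKM in sant-null and 0.608 FPKM in Col-0, and AT5G47590 had 5.02 FPKM in sant-null and 1.66 FPKM in Col-0. AT4G21870 was the member called lower, with 4.45 FPKM in sant-null and 5.85 FPKM in Col-0.

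**Figure D2:**
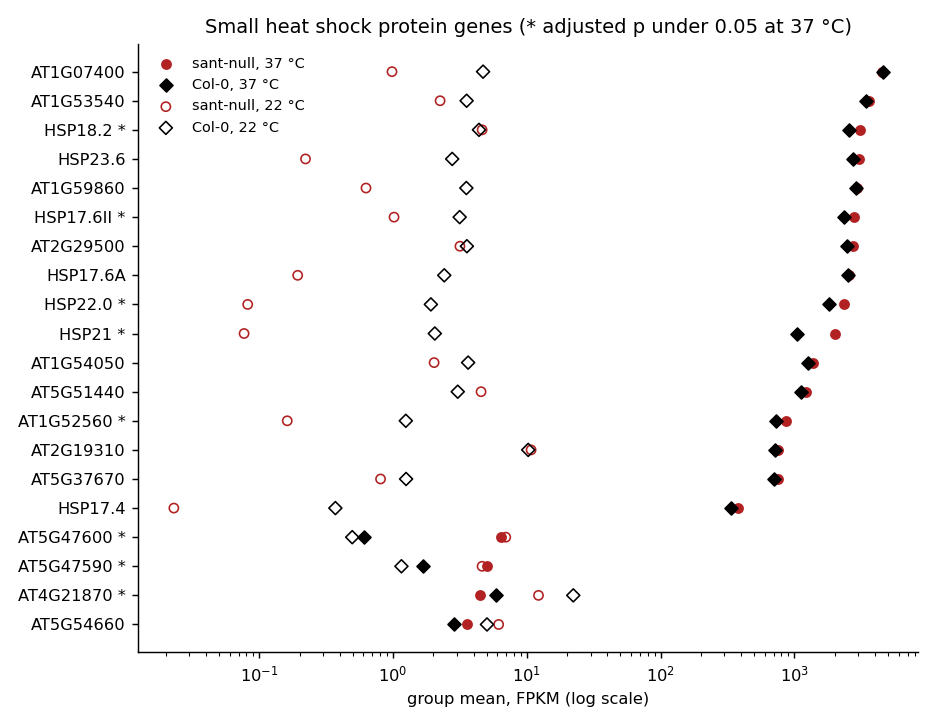
Authors' mean FPKM (horizontal axis, log scale) of each small heat shock protein gene, HSP18.2 included, in each genotype and temperature, a row per gene and a point for the mean of a group. At 37 °C the pair of points of a gene nearly coincides except for HSP21, AT5G47600 and AT5G47590, while at 22 °C many genes lie lower in sant-null, HSP21 at 0.0770 FPKM against 2.05 FPKM in Col-0.

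The same family stood differently before heat. At 22 °C, 12 of the 19 were called lower in sant-null and 3 higher, with a median log2 fold change of -0.95. Of 21392 genes tested at both temperatures, 2092 were called lower and 1955 higher at 22 °C. These counts are the background for the list counts at 22 °C, here and below. HSP21 had 0.0770 FPKM in sant-null and 2.05 FPKM in Col-0 at 22 °C, and HSP22.0 had 0.0819 and 1.92 FPKM. The effect at 37 °C exceeded that at 22 °C in 10 of the 19, by 5.70 for HSP21 and 4.95 for HSP22.0 on the log2 scale (Wald test of the difference of the authors' deposited tables, adjusted p = 1.07e-21 and 8.93e-18), where 0.499% of all genes with both values were called higher in the difference. For both genes the levels at 22 °C were far below those at 37 °C in either genotype.

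Where chaperones of the HSP70, HSP90 and HSP100 families fell, the differences were small. Most of these genes, and most of the cofactor and photosynthesis genes below, lie over 100 FPKM, where 24.3% of all genes were lower, or 13.5% on the FPKM scale. Of 13 HSP70 genes 12 were tested, 6 fell and 1 rose, while 5 were not called, with a median log2 fold change of -0.11. With the FPKM scale the counts were 4 and 1. In hda6 at 37 °C 8 of these genes were called lower than in Col-0 and 0 higher, and in sant-null at 22 °C 8 were lower and 1 higher. HSC70-1, the main cytosolic form, had 1470 FPKM in sant-null and 1680 FPKM in Col-0 (-0.24 ± 0.04, adjusted p = 2.63e-06, authors' deposited table). The mitochondrial mtHSC70-2 had 1138 FPKM in sant-null and 1258 FPKM in Col-0. HSP70B, a heat-raised form, had 2489 and 2693 FPKM and lost its call on the FPKM scale. Hsp70-2, a close copy of HSC70-1 whose reads may be divided with it, was the member that rose, with 94.6 FPKM in sant-null, 45.8 FPKM in hda6 and 76.2 FPKM in Col-0. HSP70 itself had 3189.6 FPKM in sant-null and 3276 FPKM in Col-0 and was not called (adjusted p = 0.380).

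Of 10 HSP90 and HSP100 genes, 5 fell and 0 rose, with a median log2 fold change of -0.14, and on the FPKM scale 4 fell. In hda6 at 37 °C 6 of them were lower than in Col-0 and 1 higher, and in sant-null at 22 °C 6 were lower and 0 higher. HSP101, the cytosolic disaggregase, had 2238 FPKM in sant-null, 2308 FPKM in hda6 and 2594 FPKM in Col-0 (-0.26 ± 0.05 for sant-null, adjusted p = 1.08e-05, authors' deposited table). CLPB3, its chloroplast relative, had 864 FPKM in sant-null and 969 FPKM in Col-0. HSP90.2, HSP90.3 and HSP90.4 fell, with 1776, 776 and 8.69 FPKM in sant-null and 1955, 942 and 11.4 FPKM in Col-0, but they are near-identical copies, so the value of each is uncertain, and HSP90.2 lost its call on the FPKM scale. HSP90.1, the heat-raised form, had 3358 FPKM in sant-null and 3392 FPKM in Col-0 and was not called.

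Of 9 genes of cofactors that serve these chaperones, 5 fell, 0 rose and 4 were not called, with a median log2 fold change of -0.14, and on the FPKM scale 3 fell. In hda6 at 37 °C 7 of the 9 were lower than in Col-0, and in sant-null at 22 °C 8 were, with 0 higher in either. BAG6, a BAG-domain co-chaperone, had 648 FPKM in sant-null and 773 FPKM in Col-0 (-0.30 ± 0.05, adjusted p = 4.54e-09, authors' deposited table). HOP3, which links HSP70 to HSP90, had 878 FPKM in sant-null and 955 FPKM in Col-0, and ROF1, an FK506-binding prolyl isomerase, had 680 and 737 FPKM. J2 and J3, DnaJ partners of HSP70, also fell. AT1G71000, a DnaJ-domain gene outside the list, had 327 FPKM in sant-null, 150 FPKM in hda6 and 226 FPKM in Col-0, and rose by 0.49 ± 0.05 on the log2 scale in the authors' deposited table.

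Regulators of the heat response were examined as heat shock factors and as other factors of heat and cold. Of 21 heat shock factors 19 were tested, 1 rose and 2 fell, against 4.72% higher and 4.05% lower over all tested genes, with a median log2 fold change of 0.00, or 1 and 1 on the FPKM scale. HSFA7B, a class A factor induced by heat, had 560 FPKM in sant-null, 347 FPKM in hda6 and 468 FPKM in Col-0 (0.22 ± 0.04, adjusted p = 1.10e-06, authors' deposited table), and sant-null exceeded hda6 by 0.65 (Wald test, called). HSFB1 and HSFB2B, class B factors known as repressors, had 611 and 39.7 FPKM in sant-null and 659 and 42.3 FPKM in Col-0. They lie at levels where 24.3% (over 100 FPKM) and 11.5% (10 to 100 FPKM) of tested genes were lower. HSFA2, the most abundant factor, had 1554 FPKM in sant-null and 1570 FPKM in Col-0 and was not called. The HSFA1 genes, which start the response, gave no call and ran between HSFA1A, with 0.450 FPKM in sant-null and 0.360 FPKM in Col-0, and HSFA1E, with 5.28 and 5.10 FPKM in sant-null and Col-0.

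Of 7 DREB, CBF and MBF1C genes 6 were tested and 0 were called at any of the settings used for lists, nor did any pass an unadjusted p under 0.05 (DESeq2, authors' deposited table). DREB2A, a factor of heat and drought responses, had 92.2 FPKM in sant-null and 88.1 FPKM in Col-0, with a log2 fold change of 0.02 ± 0.04 in the authors' deposited table. MBF1C, a coactivator induced by heat, had 1177 FPKM in sant-null and 1147 FPKM in Col-0.

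Folding in the endoplasmic reticulum was represented by 20 genes, of which 5 fell and 0 rose, on both scales. The share lower was 4.05% over all tested genes and 24.3% among those over 100 FPKM, where BIP1 and BIP2 lie. BIP2, the lumenal HSP70, had 184 FPKM in sant-null, 151 FPKM in hda6 and 235 FPKM in Col-0 (-0.39 ± 0.05, adjusted p = 1.75e-15, authors' deposited table). Its near-copy BIP1 had 398 FPKM in sant-null and 441 FPKM in Col-0, and reads shared between them make both uncertain. CNX1 and CRT1b, lectin chaperones, and HSP90.7, the lumenal HSP90, fell too. The sensors BZIP60, BZIP28, IRE1A and IRE1B were not called. In hda6 at 37 °C 10 of the 20 genes were lower than in Col-0, and in sant-null at 22 °C 8 were, with 0 higher in either.

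Among 17 oxidative stress genes 3 rose and 5 fell, on both scales, against 4.72% higher and 4.05% lower over all tested genes. Over 100 FPKM, where APX1 and CAT2 lie, 7.62% were higher and 24.3% lower. Between 10 and 100 FPKM, where CAT3 lies, the shares were 6.92% and 11.5%. CSD2, the chloroplast copper and zinc superoxide dismutase, had 15.2 FPKM in sant-null, 19.8 FPKM in hda6 and 9.22 FPKM in Col-0. CCS, the chaperone that loads copper into it, had 5.03 FPKM in sant-null and 3.29 FPKM in Col-0, and CAT2, a catalase, had 401 and 353 FPKM. APX1, the cytosolic ascorbate peroxidase, fell to 286 FPKM in sant-null, against 351 FPKM in Col-0. CAT3 fell as well, with 49.3 FPKM in sant-null, 77.9 FPKM in hda6 and 63.3 FPKM in Col-0, and sant-null minus hda6 was -0.70 (Wald test, called). FSD1, ZAT12 and ZAT7, an iron superoxide dismutase and a pair of zinc finger regulators, completed the falls.

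Of 17 genes of abscisic acid, cold and osmoprotection 5 rose and 4 fell, or 5 and 3 on the FPKM scale. The shares over all tested genes were 4.72% higher and 4.05% lower. GOLS1 and GOLS2, galactinol synthases that feed raffinose synthesis, had 1923 and 35.8 FPKM in sant-null and 1582 and 23.5 FPKM in Col-0. GOLS2 had 19.7 FPKM in hda6, and sant-null exceeded hda6 by 0.82 on the log2 scale (Wald test, called). COR15A and COR15B, a near-identical pair that protects chloroplast membranes in cold, had 0.948 and 0.232 FPKM in sant-null and 0.117 and 0.0110 FPKM in Col-0. NCED3, the rate-limiting enzyme of abscisic acid synthesis, and CYP707A3, which degrades the hormone, both fell, with 3.84 and 0.986 FPKM in sant-null and 5.13 and 1.53 FPKM in Col-0. RD29A and ERD10 fell, and RAB18 rose to 2.55 FPKM in sant-null, against 1.56 FPKM in Col-0.

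The photosynthesis genes that fell were mostly light-harvesting genes, and those that rose were Rubisco genes. Of 27 genes 26 were tested, 11 fell, 2 rose and 13 were not called, with a median log2 fold change of -0.11, or 7 and 3 on the FPKM scale. In sant-null at 22 °C 17 of the 26 were lower and 0 higher, with a median log2 fold change of -0.17. In hda6 at 37 °C 4 were higher and 3 lower than in Col-0. LHCB1.4, an antenna protein of photosystem II, had 492 FPKM in sant-null and 644 FPKM in Col-0 (-0.43 ± 0.05, adjusted p = 2.47e-18, authors' deposited table). LHCB1.3, the most abundant light-harvesting gene, had 4749 FPKM in sant-null and 5225 FPKM in Col-0, and LHCB6 had 1120 and 1302 FPKM. RBCS1A, a Rubisco small subunit, had 5100 FPKM in sant-null, 5333 FPKM in hda6 and 4366 FPKM in Col-0, and RBCS1B had 392 FPKM in sant-null and 322 FPKM in Col-0. The LHCB1 and RBCS genes are families of near-identical copies, so how reads were divided among them may shift single members.

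AT5G07330, annotated as an NFU1 iron-sulfur cluster protein, was the highly expressed gene with the largest proportional rise, with 220 FPKM in sant-null, 119 FPKM in hda6 and 87.8 FPKM in Col-0. Its log2 fold change in the authors' deposited table was 1.28 ± 0.05 (SE, adjusted p = 2.92e-172). At 22 °C it had 0.151 FPKM in sant-null and 0.323 FPKM in Col-0, so its level was higher at 37 °C than at 22 °C in both genotypes.

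Calls among chromatin genes other than the mutated ones can be read against 4.72% higher and 4.05% lower over all tested genes. Of 17 tested histone deacetylase genes 1 rose, HDA18, with 0.619 FPKM in sant-null and 0.0648 FPKM in Col-0, and on the FPKM scale 2 rose. Of 12 acetyltransferase genes 1 rose on both scales, HAF2, a TAF1-like protein, with 0.498 FPKM in sant-null, 0.106 FPKM in hda6 and 0.0910 FPKM in Col-0, and sant-null exceeded hda6 by 2.18 on the log2 scale (Wald test, called). Of 17 genes of DNA methylation and silencing 2 rose on both scales, the DNA demethylase ROS1 and NRPE1, the largest subunit of RNA polymerase V. ROS1 had 1.89 FPKM in sant-null, 0.626 FPKM in hda6 and 1.42 FPKM in Col-0, and sant-null exceeded hda6 by 1.55 on the log2 scale (Wald test, called).

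Of the flowering repressors listed, FLC, MAF4 and MAF5 rose at low level, TEM1 and TEM2 fell, and MAF1, MAF2, MAF3 and SVP were not called. The log2 fold changes of the last group were 0.07, -0.07, -0.004 and -0.19 in the authors' deposited table. Of 12 flowering-time genes 3 rose and 2 fell, or 3 and 1 on the FPKM scale, against 4.72% higher and 4.05% lower over all tested genes. FLC, the main floral repressor, had 1.80 FPKM in sant-null and 0.743 FPKM in Col-0 (1.23 ± 0.26, adjusted p = 0.000113, authors' deposited table). Its relatives MAF4 and MAF5, which are neighbours in the genome, had 1.59 and 0.916 FPKM in sant-null and 0.341 and 0.261 FPKM in Col-0. FLC, MAF4 and MAF5 were also called higher than in Col-0 in hda6 at 37 °C and in sant-null at 22 °C. TEM1 and TEM2, repressors of FT, fell to 0.239 and 1.83 FPKM in sant-null, against 0.527 and 2.65 FPKM in Col-0. Both were also called lower in hda6 at 37 °C and in sant-null at 22 °C. FT had 0.0871 FPKM in sant-null and 0.0217 FPKM in Col-0 and was not called.

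In the clock, defence, jasmonate and growth lists too, 4.72% higher and 4.05% lower over all tested genes are the background. Of 14 clock genes 3 fell, CCA1, PRR7 and LNK2, and on the FPKM scale 1 fell, with 35.5, 17.8 and 32.7 FPKM in sant-null and 37.9, 19.4 and 38.0 FPKM in Col-0. Of 10 tested genes of salicylic acid and camalexin defence 1 rose and 1 fell, on both scales. PR5 had 1.63 FPKM in sant-null and 0.675 FPKM in Col-0, and WRKY70 had 0.908 FPKM in sant-null and 1.84 FPKM in Col-0. Of 6 tested jasmonate genes 2 fell on both scales, LOX2, an enzyme of jasmonate synthesis, with 6.54 FPKM in sant-null and 10.2 FPKM in Col-0, and the defensin PDF1.2, with 0.0118 and 0.507 FPKM. Of 13 genes of auxin growth and warmth response 1 fell, IAA19, with 1.98 FPKM in sant-null and 2.94 FPKM in Col-0, and on the FPKM scale 0 did.

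Markers of organs were examined because seedlings were extracted whole. Of 13 root markers 2 rose on both scales, the iron transporter IRT1, with 9.19 FPKM in sant-null and 6.89 FPKM in Col-0, and the iron reductase FRO2, with 2.03 and 1.34 FPKM. The share higher over all tested genes was 4.72%. The median log2 fold change of the root list was 0.38 against 0.01 over all tested genes, with 11 members above 0, and its summed level was 18.7 FPKM in sant-null and 14.5 FPKM in Col-0. None of the 4 tested floral markers was called, though 2 had an unadjusted p under 0.05 (DESeq2, authors' deposited table), and their sum was 1.85 FPKM in sant-null and 2.43 FPKM in Col-0, with AP1 at 0 in both. None of the 5 tested seed genes of 12 was called or had an unadjusted p under 0.05, and their sum was 0.385 FPKM in sant-null and 0.552 FPKM in Col-0. The part that organ proportions have in the differences was not tested.

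**Figure D3:**
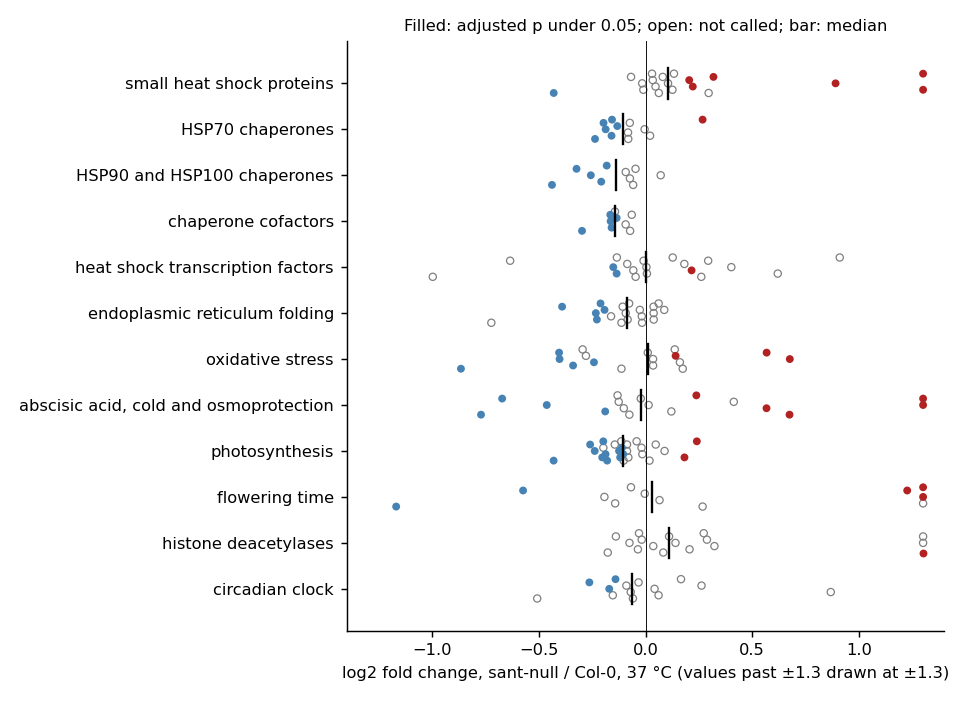
Log2 fold change of sant-null over Col-0 at 37 °C in the authors' deposited table (horizontal axis) for the members of 12 gene lists (rows), a point per tested gene, filled in colour where called and open where not, with a bar at the list median. Values beyond the axis are drawn at its edge. The members of the HSP70, HSP90 and HSP100, cofactor and photosynthesis lists lie mostly just below 0, and the small heat shock proteins mostly just above it.

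The share of genes called was higher among genes raised by heat, and lower among genes lowered by heat, than among genes that heat changed little. Classes were set by the ratio of the authors' mean FPKM at 37 °C over 22 °C in hda6, whose libraries are in neither group compared. Only genes with at least 1 FPKM in hda6 at 37 °C or at 22 °C entered the classes. Of 283 tested genes raised over 8-fold by heat, 20.1% were higher and 20.8% lower in sant-null, against 5.06% and 5.73% of the 7438 genes that heat changed by less than 2-fold. Of 894 genes lowered by heat over 8-fold, 0.559% were higher and 2.46% lower. The median log2 fold change was -0.00 in the most raised class and -0.08 in the most lowered class, and the quartiles of the most raised class were -0.14 and 0.24, so that its genes moved both ways. As given above, calls also differed between levels of expression, and the part of level in these shares was not tested.

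**Figure D4:**
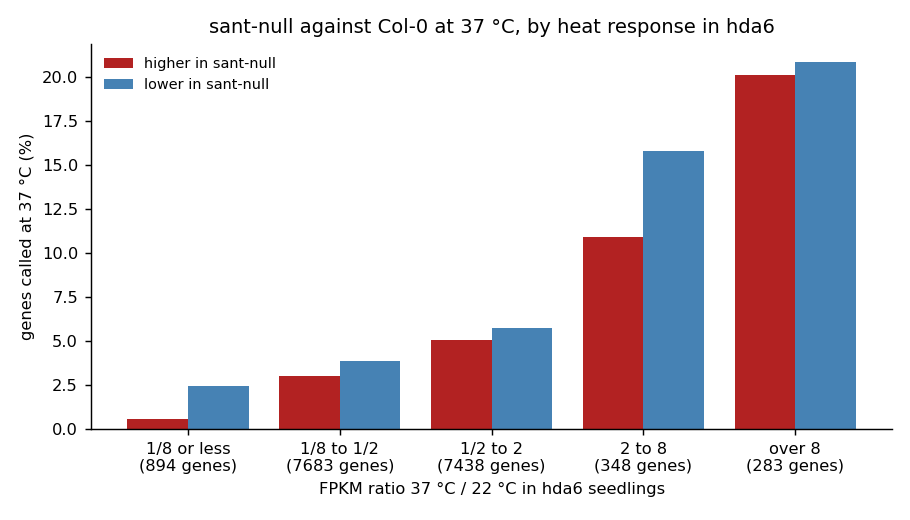
Percentage of tested genes called higher or lower in sant-null at 37 °C (vertical axis, from 0) in 5 classes of the heat ratio in hda6 (horizontal axis). Both percentages are largest in the class raised over 8-fold, at 20.1% higher and 20.8% lower.

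Within that class, the following examples among the largest differences were chosen after their values were seen. AT2G21820, a seed maturation protein, had 14.3 FPKM in sant-null, 9.76 FPKM in hda6 and 3.15 FPKM in Col-0. AT4G29770, annotated as a target of trans-acting siRNAs, had 21.2, 16.1 and 4.97 FPKM in these groups, and AT5G03435 had 4.01, 1.08 and 0.459 FPKM. AT4G32208, annotated in the HSP70 family, had 21.1 FPKM in sant-null, 13.1 FPKM in hda6 and 6.50 FPKM in Col-0. In the other direction, AT1G21940, an uncharacterized protein, had 117 FPKM in sant-null, 316 FPKM in hda6 and 270 FPKM in Col-0. The 4 genes named first were above Col-0 in both mutants, while AT1G21940 was below Col-0 in sant-null and above it in hda6.

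The same contrast at 22 °C rests on 6 other libraries. Of 21392 genes tested at both temperatures, 679 were higher in sant-null at both, 66.8% of the 1016 called higher at 37 °C and 34.7% of the 1955 called higher at 22 °C. Another 508 were lower at both, 57.9% of the 878 at 37 °C and 24.3% of the 2092 at 22 °C. For calls of at least 2-fold, 350 higher genes were shared, 71.0% of those at 37 °C and 42.5% of those at 22 °C, while 14 lower ones were shared, 24.1% and 20.9%. Opposite calls were made for 14 genes higher at 37 °C and lower at 22 °C, and for 3 the other way.

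The difference of the effects was tested for 23470 genes. The effect was higher at 37 °C than at 22 °C in 117 and lower in 79 (0.337%), and on the FPKM scale in 74 and 115. Of the genes called higher at 37 °C, 58 were called for this difference, as were 53 of those called lower. AT1G71000 had 327 FPKM in heated sant-null and 226 FPKM in heated Col-0, and in unheated seedlings it was listed at 0 in sant-null and had 0.417 FPKM in Col-0. APX2, a heat-raised ascorbate peroxidase, had 379 FPKM in sant-null and 359 FPKM in Col-0 at 37 °C, not called, and 0.0239 and 0.368 FPKM at 22 °C. CRA1, a seed storage cruciferin, showed the opposite, with 0.0845 FPKM in heated sant-null and 0.178 FPKM in heated Col-0, and 1.67 FPKM in sant-null and 0.0361 FPKM in Col-0 at 22 °C. Its difference, 37 °C minus 22 °C, was -6.49 (Wald test on the authors' deposited tables, adjusted p = 3.04e-11).

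**Figure D5:**
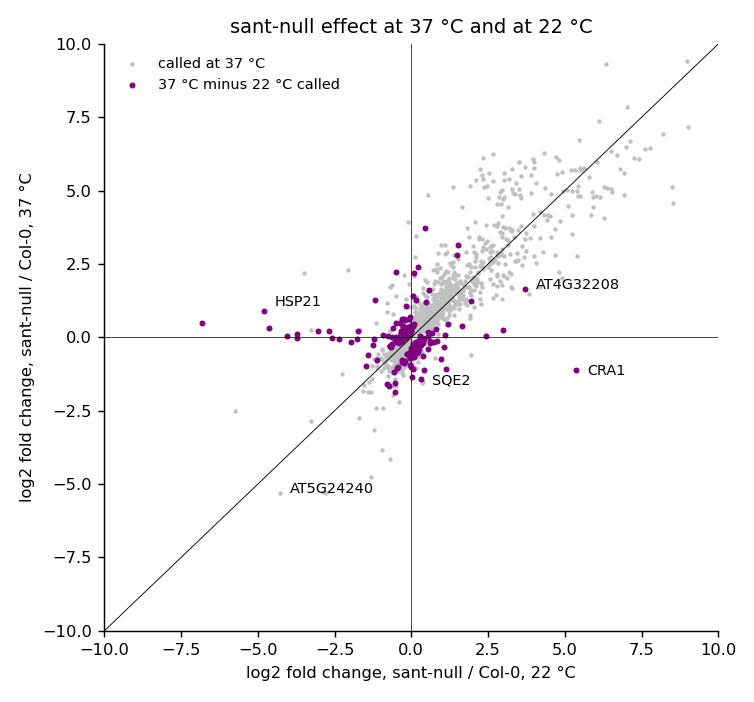
Log2 fold change of sant-null over Col-0 at 37 °C (vertical axis) against that at 22 °C (horizontal axis), both from the authors' deposited tables, for genes called at 37 °C or for the difference, with the 196 genes called for the difference in colour. Most grey points follow the diagonal, and HSP21 lies far to the left of it.

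At 37 °C the 2 mutants were set against each other through their deposited comparisons with the same Col-0 libraries, with an error that is an upper bound. Of 23357 genes, 485 were higher (2.08%) and 401 lower (1.72%) in sant-null than in hda6. AT5G24240, TIL2, HAF2, ROS1, GOLS2, HSFA7B and HSP21, described above, were among them. For HSFA7B, ROS1 and GOLS2, sant-null was above Col-0 and hda6 below it.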

How the data were processed

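Messenger RNA libraries of whole seedlings were sequenced from paired ends. The submitters' processing notes name the TAIR10 build, featureCounts 2.0.1, HISAT2 2.2.1, CASAVA and DESeq2 1.30.1. No source used here gives settings, strand use or the treatment of reads with several matches, so overlapping genes and near-identical copies are uncertain. The authors deposited FPKM as 1 mean per group, without library values. For each comparison the authors deposited a baseMean, a signal averaged over libraries, a log2 fold change with its standard error, a Wald score, and a p-value with an adjusted p. The deposited score equalled the log2 fold change over its error to within 2.53e-07. No column of per-sample values went unused (0 columns).

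The deposited adjusted p under 0.05 was the call. The 37 °C minus 22 °C difference, and sant-null minus hda6, were differences of deposited log2 fold changes, with Wald tests and Benjamini-Hochberg adjustment over all genes (Python 3.11.15, pandas 2.3.3, NumPy 2.4.6, SciPy 1.17.1, Matplotlib 3.10.9), tested on simulated data. Separate cultures for the libraries of a group are not stated, and the p-values then measure the spread between libraries, which may be technical. Size factors were recovered from genes whose baseMean rests on 1 read, and the summed baseMean of 21.5 M times each gave the depth.

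Genes and lists were chosen with earlier results of these data known. Named genes were, per direction, the 14 with the largest fold among those called with at least 1 FPKM in the higher group, the 8 with the largest FPKM change, the 6 with the largest difference between temperatures, and members of the 21 gene lists. Names and sequences are from RefSeq (TAIR10.1), and all identifiers matched.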

Additional observations from a re-analysis of the deposited data

Results flagged for a closer look

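A difference between the effect of sant-null at 37 °C and its effect at 22 °C, by the Wald test, brought up the following named genes, each given as the log2 fold change of sant-null over Col-0 at 37 °C minus that at 22 °C. Among chaperone and heat-raised genes the difference was 5.70 for HSP21, 4.95 for HSP22.0, 3.86 for HSP23.6, 3.72 for HSP17.6A, 3.23 for AT1G52560 and 1.94 for HSP17.6II. It was 1.81 for HSP70B, 1.00 for HSP101, 4.08 for APX2 and 2.46 for AT5G07330. AT1G71000 gave 7.31, which rests on a sant-null level listed at 0 at 22 °C and is therefore no bound. In all of these the level at 22 °C was lower in sant-null than in Col-0, for example 2.27 FPKM in sant-null and 5.09 FPKM in Col-0 for HSP101.

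The difference was negative for CRA1 (-6.49), AT1G06030 (-2.74), AT3G15670 (-2.39), AT4G32208 (-2.05), SQE2 (-1.76), AT5G47530 (-1.72), ABCG6 (-1.34), AT5G20790 (-1.01), MGD3 (-0.92) and PEPC1 (-0.78). AT4G32208, annotated in the HSP70 family, had 21.1 FPKM in sant-null and 6.50 FPKM in Col-0 at 37 °C, and 1.81 FPKM in sant-null and 0.134 FPKM in Col-0 at 22 °C. AT3G15670, a late embryogenesis abundant protein, had 0.516 FPKM in sant-null and 0.480 FPKM in Col-0 at 37 °C, and 1.37 FPKM in sant-null and 0.239 FPKM in Col-0 at 22 °C. CRA1 and AT3G15670 are genes of seed maturation.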

How the results depend on the processing

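For the comparison of sant-null with heated Col-0, an adjusted p under 0.01 left 682 higher and 521 lower genes, a fold of at least 2 left 502 and 60, and Holm adjustment left 334 and 230. The FPKM scale changed the lower genes to 577. For the effect at 37 °C minus that at 22 °C, an adjusted p under 0.01 left 69 higher and 39 lower, a fold of at least 2 left 26 and 16, Holm adjustment left 40 and 12, and the FPKM scale changed the higher genes to 74. For sant-null against hda6, an adjusted p under 0.01 changed the lower genes to 264, a fold of at least 2 left 86 higher and 59 lower, and Holm adjustment left 179 and 112. A stricter threshold lowers these counts by construction. Other counts over all genes stayed within 1.5 times the main ones. As a ratio of mean FPKM with a pseudocount, which pulls the folds of low genes towards 0 by construction, 26 of 59 named genes moved by more than their standard error with a pseudocount of 0.1 and 41 with a pseudocount of 1. The log2 fold change became 4.18 and 1.45 for AT3G42850, 4.66 and 2.49 for AT5G54095, and -4.32 and -2.16 for AT5G24240 at these pseudocounts, and of the 59 only HSP17.6A and HDA6, which were not called, changed sign. With a minimum of 1 FPKM, fewer genes are tested, and the lists gave 3 higher calls for abscisic acid, cold and osmoprotection, 1 lower for flowering time, 0 higher for histone deacetylases and for acetyltransferases, 1 higher for DNA methylation and silencing, and 1 lower for jasmonate. With the outer heat classes at 4-fold, 1.72% of the most lowered class were higher, against 0.559% at 8-fold, and the other 3 shares stayed within 1.5 times. HSP70B and HSP90.2 lost and HSP23.6 gained a call on the FPKM scale. The seed list could not be computed with a minimum of 1 FPKM, where no member is left. Removal of each library in turn and the fit with a replicate block were not run. No paired analysis was possible because the FPKM columns hold 1 value per group and the deposited comparisons carry no library values. Depth limits calls at low levels, where the median standard error under 0.1 FPKM was 1.36.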

Other observations

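In a list of genes of the phosphate shortage response, regulators included, about as many fell in sant-null at 37 °C as did not pass the test. This list was made after their values were seen, so its count supports nothing by itself. Of 27 genes 26 were tested, 14 fell and 0 rose on both scales, against 4.05% lower and 4.72% higher over all tested genes. The median log2 fold change was -0.48 against 0.01 over all tested genes, and the summed levels were 173 FPKM in sant-null and 219 FPKM in Col-0. PS2, a phosphatase, had 4.48 FPKM in sant-null and 9.83 FPKM in Col-0 (-1.17 ± 0.13 in the authors' deposited table). SQD2 and SQD1, which make sulfolipid, had 13.2 and 24.5 FPKM in sant-null and 20.0 and 33.5 FPKM in Col-0. SPX1, a phosphate sensor, had 3.60 FPKM in sant-null and 5.84 FPKM in Col-0, and PHR1, the master regulator, had 3.93 and 3.62 FPKM in sant-null and Col-0 and was not called. At 22 °C 13 of the 26 were lower and 1 higher in sant-null, and in hda6 at 37 °C 8 were lower and 2 higher. The background at 22 °C, for this list and the next, was 2092 lower and 1955 higher of 21392 genes, and none was counted for hda6.

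A list of sulfur limitation genes, also made after values were seen, gave 10 lower and 0 higher calls of 16 tested on both scales. The shares over all tested genes were 4.05% lower and 4.72% higher. Its median log2 fold change was -0.67. At 22 °C 8 of the 16 were lower and 1 higher in sant-null, and in hda6 at 37 °C 7 were lower and 1 higher. APR3, a reductase of sulfate assimilation, had 9.03 FPKM in sant-null and 17.7 FPKM in Col-0 (-1.02 ± 0.07, adjusted p = 2.28e-42, authors' deposited table). APR1 had 9.89 FPKM in sant-null and 16.7 FPKM in Col-0. LSU2, of a family named for its response to low sulfur, had 28.9 FPKM in sant-null and 44.9 FPKM in Col-0. The transporters SULTR1;1 and SULTR1;2 were not called, with 0.284 and 1.63 FPKM in sant-null and 0.272 and 1.86 FPKM in Col-0. For APR1, APR3, SHM7 and AT1G04770 the effect was lower at 37 °C than at 22 °C (Wald test of the difference).

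The 18S ribosomal RNA gene AT3G41768, whose reads cannot be assigned to a single copy, had 114 FPKM in sant-null and 177 FPKM in Col-0 at 37 °C (-0.68 ± 0.17, adjusted p = 0.00157, authors' deposited table), and 135 FPKM in sant-null and 119 FPKM in Col-0 at 22 °C. AT2G01010, also a ribosomal RNA gene, was called lower at both temperatures, with a log2 fold change of -0.94 at 37 °C and -0.83 at 22 °C in the authors' deposited tables. Of 3 ribosomal RNA genes tested at 37 °C, 2 were lower. The libraries are of messenger RNA, so these reads may not measure the level of ribosomal RNA in the seedlings, which was not tested.

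Of the 502 genes at least 2-fold higher in sant-null, which are 2.31% of the tested genes, 61 (12.2%) lay beside another of them in gene order, in 31 pairs. In some pairs, such as AT1G65330 and AT1G65370, the gene numbers are not consecutive, so other annotated genes may lie between. MAF4 and MAF5, COR15A and COR15B, and AT5G47590 and AT5G47600 are such pairs. No comparison with random positions was made.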
